A study of Arabidopsis thaliana with 20 samples.

Results

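The xylem and secondary wall genes described here are 10 Arabidopsis thaliana genes chosen by locus identifier, and all 10 were present among the 33201 genes of the deposited expression table. They are the NAC transcription factors VND6 (AT5G62380) and VND7 (AT1G71930), the MYB transcription factors MYB46 (AT5G12870) and MYB83 (AT3G08500), and the cellulose synthases CESA4 (AT5G44030), CESA7 (AT5G17420) and CESA8 (AT4G18780). The others are the laccase LAC17 (AT5G60020) and the cysteine proteases XCP1 (AT4G35350) and XCP2 (AT1G20850). RNA was sequenced from roots of Col-0 seedlings with the PET111:GFP transgene, which marks the columella, the central part of the root cap. Roots were cut and digested to protoplasts, and a cell sorter collected the cells without GFP, so every library lacks the GFP-positive cells by design. The libraries labelled elongation zone (EZ) and those labelled meristematic zone (MZ) each cover 3, 4, 5, 6 and 7 days of age, and every combination has 2 biological replicates, for 10 groups and 20 libraries.

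Water-conducting xylem cells build a thick secondary wall and then die and empty themselves. VND6 and VND7 are the switches that start this program, and both act through MYB46 and MYB83, which turn on genes of the wall. CESA4, CESA7 and CESA8 are the subunits of the complex that lays down secondary wall cellulose, LAC17 polymerises lignin, and XCP1 and XCP2 digest the contents of the dying cell. In the root tip these steps take place in a few central files of cells, so their transcripts come from a small part of the tissue. In these bulk libraries, fewer xylem cells and less RNA per xylem cell cannot be told apart.

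The labels were checked against genes of dividing cells. All 6 such markers rose in EZ-labelled libraries relative to MZ-labelled ones, contrary to what the zones are named for, so libraries are called by their labels throughout. Whether the labels were exchanged was not tested, and an exchange would turn the sign of every EZ minus MZ value given here. The replication clamp gene PCNA1 (AT1G07370) averaged 39.2 ± 15.8 FPKM (SD, n = 10) under the EZ label and 9.42 ± 5.27 FPKM (SD, n = 10) under the MZ label. RPS6A (AT4G31700), a ribosomal protein gene, averaged 946 ± 267 FPKM under the EZ label and 306 ± 107 FPKM under the MZ label, and RCPG (AT1G65570), a root cap polygalacturonase gene, averaged 158 ± 106 FPKM for EZ and 501 ± 243 FPKM for MZ (SD, n = 10 each). FPKM are fragments scaled to transcript length and library depth. The steps between low FPKM values gave depths of 12.9 to 50.1 M fragments for EZ and 4.13 to 24.3 M fragments for MZ. The 2 libraries least like the others over the remaining tested genes were EZ day 6 replicate 2 and MZ day 7 replicate 2, with mean correlations across genes of 0.875 and 0.887. EZ day 6 replicate 2 also had the lowest mean of the 5 endodermis markers, 1.60 on the log2(FPKM + 1) scale, and the other libraries lay between 4.89 and 7.14.

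The promoters of 4 of the genes are shown, those of 2 pairs described further on. Of 6 pairs compared, these were among the 3 whose ratio passed an adjusted p of 0.05 between zone labels (exact permutation test). Each promoter is the 250 bases before the annotated start of the gene in TAIR10.1, read 5′ to 3′ along the strand of the gene. The submitters' processing notes name TAIR10, and the positions given here are those of TAIR10.1. Capitals mark letters of either of 2 motifs searched on both strands. One is TERE, an element described for genes of tracheary elements, the dead conducting cells of the xylem. The other is SMRE, bound by MYB46 and MYB83, searched in its 8 spellings, which are ACC, then A or T, then A, then A or C, then C or T. No matches of the 2 motifs overlapped in the windows of the 10 genes. The XCP1 window is chr4:16810232-16810481 on the plus strand, and the XCP2 window is chr1:7251861-7252110 on the plus strand. The CESA4 window is chr5:17714140-17714389 on the plus strand, and the CESA8 window is chr4:10316887-10317136 on the minus strand.
XCP1: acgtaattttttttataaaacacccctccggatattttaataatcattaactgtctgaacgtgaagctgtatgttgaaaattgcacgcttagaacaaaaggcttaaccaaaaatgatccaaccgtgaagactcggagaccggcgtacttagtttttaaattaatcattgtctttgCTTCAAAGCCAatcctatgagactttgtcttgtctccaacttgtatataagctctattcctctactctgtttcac
XCP2: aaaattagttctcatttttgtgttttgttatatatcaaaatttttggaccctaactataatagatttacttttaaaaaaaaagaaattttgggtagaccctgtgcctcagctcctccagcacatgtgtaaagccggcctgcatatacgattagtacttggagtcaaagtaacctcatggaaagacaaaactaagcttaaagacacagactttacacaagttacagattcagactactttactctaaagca
CESA4: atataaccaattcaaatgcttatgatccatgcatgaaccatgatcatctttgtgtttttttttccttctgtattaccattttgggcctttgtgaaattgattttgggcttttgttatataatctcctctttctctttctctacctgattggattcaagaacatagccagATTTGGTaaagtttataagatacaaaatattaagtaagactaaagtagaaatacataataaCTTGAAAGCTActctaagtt
CESA8: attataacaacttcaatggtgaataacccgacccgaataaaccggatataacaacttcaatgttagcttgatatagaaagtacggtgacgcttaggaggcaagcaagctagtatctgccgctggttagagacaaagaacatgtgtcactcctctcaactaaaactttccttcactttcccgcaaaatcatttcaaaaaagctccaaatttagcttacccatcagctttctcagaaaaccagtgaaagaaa
The TERE letters stand 75 bases before the start in XCP1 and 20 bases before it in CESA4, where an SMRE spelling stands 81 bases before it on the other strand. XCP2 and CESA8 hold neither motif in these windows. Over all 10 genes, 2 windows held TERE and 4 held an SMRE spelling (CESA4, VND7, MYB83 and LAC17). Of 32480 windows of the same length before nuclear genes of the table, 0.354% held TERE and 29.0% held an SMRE spelling. A match is a description of the letters and says nothing of binding.

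The switches VND6 and VND7 were weakly expressed. VND6 was listed at 0 in 3 libraries labelled EZ and in 4 labelled MZ. Its highest value was 1.62 FPKM and its median 0.663 under the EZ label, against 3.83 and 0.333 FPKM under the MZ label. At the recovered depth VND6 had at most about 38 fragments in any library labelled EZ and 29.6 in any labelled MZ, so its differences rest on few fragments. VND7 read from 0.397 to 8.04 FPKM, with a median of 3.65, in the libraries labelled EZ. In those labelled MZ it read from 0 to 12.0 FPKM, with a median of 4.5, and it was listed at 0 in MZ day 6 replicate 2 and MZ day 7 replicate 2.

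Of the 2 MYB factors, MYB46 was above MYB83 in FPKM in all libraries but 1. MYB46 ran from 0.211 to 30.4 FPKM with a median of 8.92 in the libraries labelled EZ, and from 1.84 to 67.7 FPKM with a median of 28.8 in those labelled MZ. MYB83 reached 4.75 FPKM, with a median of 0.688, under the EZ label, and 9.88 FPKM, with a median of 1.82, under the MZ label. It was listed at 0 in 2 libraries labelled EZ and 1 labelled MZ. The exception was EZ day 5 replicate 1, where MYB46 read 0.211 FPKM and MYB83 0.875 FPKM.

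Of the 3 cellulose synthase genes of the secondary wall, CESA8 had the lowest median FPKM under either label. CESA4 read, in replicates 1 and 2 of the libraries labelled EZ, 9.01 and 3.81 FPKM at day 3, 16.4 and 13.6 at day 4, 2.41 and 20.7 at day 5, 6.67 and 1.55 at day 6, and 25.9 and 3.91 at day 7. In the libraries labelled MZ it read 13.1 and 39.5 FPKM at day 3, 32.1 and 13.5 at day 4, 15.5 and 38.3 at day 5, 23.0 and 2.36 at day 6, and 82.0 and 1.57 at day 7. The labels overlapped, and MZ day 7 held both the highest library of all and the lowest of its label.
CESA8 read 5.06 and 1.52 FPKM at day 3, 10.4 and 7.46 at day 4, 0 and 8.87 at day 5, 7.27 and 0.0433 at day 6, and 12.0 and 0.953 at day 7 in the libraries labelled EZ. In those labelled MZ it read 12.8 and 32 FPKM at day 3, 32.9 and 19.3 at day 4, 13.8 and 42.0 at day 5, 16.8 and 2.05 at day 6, and 40.1 and 0.0333 at day 7. Over the 5 ages the labels overlapped. CESA7 spanned 0.202 to 36.9 FPKM with a median of 10.3 in the libraries labelled EZ, and 1.77 to 92.2 FPKM with a median of 27.0 in those labelled MZ.

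The proteases were the most abundant of the 10 genes. XCP1 read 70.6 and 38.5 FPKM at day 3, 64.7 and 133 at day 4, 1.64 and 128 at day 5, 42.5 and 12.0 at day 6, and 210.5 and 23.2 at day 7 in the libraries labelled EZ. In those labelled MZ it read 49.3 and 103 FPKM at day 3, 111 and 79.98 at day 4, 72.9 and 138 at day 5, 77.4 and 7.93 at day 6, and 316 and 2.52 at day 7. The labels overlapped over nearly their whole range.
XCP2 read 65.8 and 37.1 FPKM at day 3, 65.2 and 129.9 at day 4, 3.26 and 114 at day 5, 32.7 and 9.56 at day 6, and 148 and 17.8 at day 7 in the libraries labelled EZ. In those labelled MZ it read 74.9 and 172 FPKM at day 3, 145 and 81.8 at day 4, 109.8 and 152 at day 5, 121 and 12.0 at day 6, and 374 and 10.6 at day 7. The highest and lowest libraries of XCP2 were those of XCP1, MZ day 7 replicate 1 and EZ day 5 replicate 1. LAC17 spanned 0.0691 to 40.5 FPKM with a median of 11.8 in the libraries labelled EZ, and 0.0824 to 190.2 FPKM with a median of 20.2 in those labelled MZ.

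**Figure D1:**
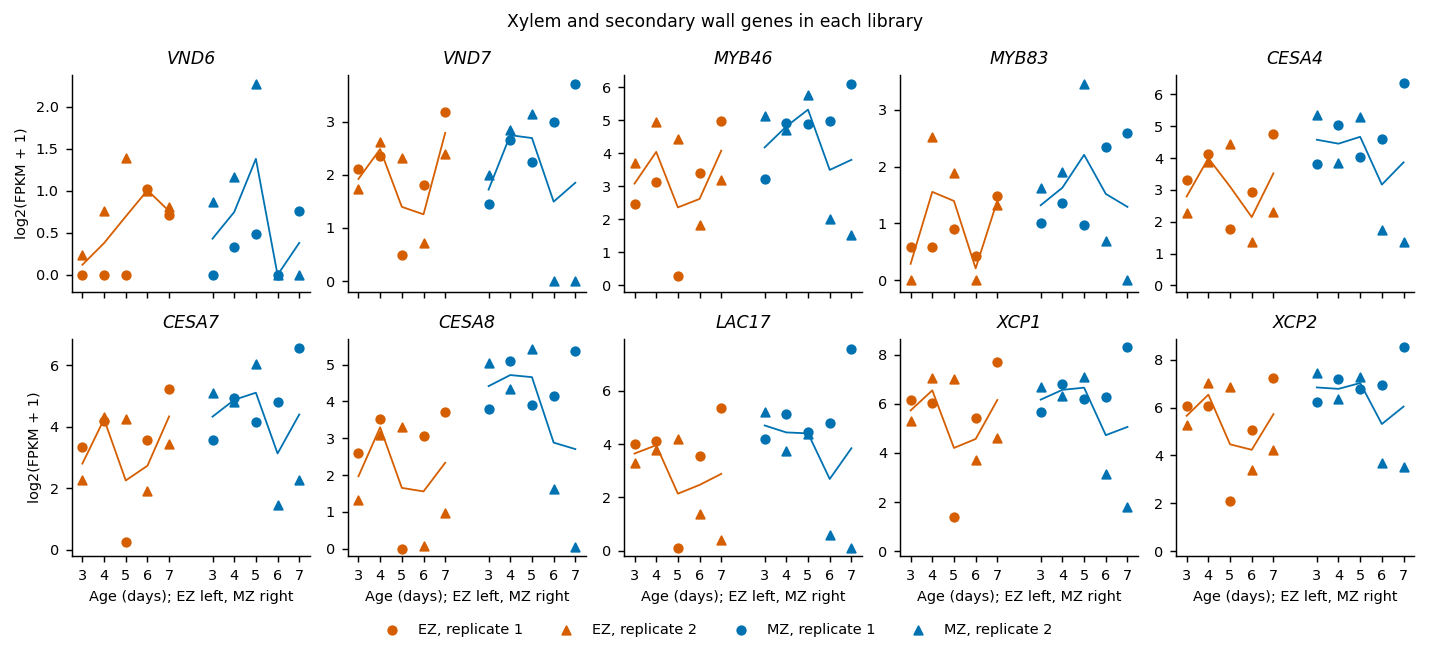
Levels of the 10 genes as log2(FPKM + 1) against age in days, EZ libraries in orange on the left and MZ libraries in blue on the right; circles are replicate 1, triangles replicate 2, and lines join the means of the 2 replicates. In most panels EZ day 5 replicate 1, MZ day 6 replicate 2 and MZ day 7 replicate 2 lie far below their partners, for example 1.64 against 128 FPKM for XCP1 at EZ day 5.

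Replicates of a group differed more in these genes than in most others. The median gap between the 2 replicates, on the log2(FPKM + 1) scale and without sign, was 0.83, 0.595, 3.64, 1.63 and 2.13 over the 10 genes at days 3 to 7 of the libraries labelled EZ. Over all 22335 tested genes it was 0.36, 0.49, 0.35, 0.60 and 0.50. In the libraries labelled MZ it was 1.12, 0.64, 1.08, 2.98 and 4.80 over the 10 genes, against 0.38, 0.42, 0.38, 0.48 and 0.498 over all tested genes. At day 5 replicate 2 was higher for all 10 genes under the EZ label and for 9 under the MZ label. At day 6 replicate 1 was higher for 10 under EZ and 9 under MZ, and at day 7 for 9 and 10. At day 3 replicate 2 was higher for 2 under EZ and 10 under MZ, and at day 4 for 7 and 3. Whether EZ and MZ libraries of one age and replicate number belong together was not tested. The residual SD of the fit was above that of 99.1% or more of tested genes for CESA4, CESA7, CESA8, MYB46, XCP1, XCP2 and LAC17, and above that of 97.0%, 94.8% and 70.5% for VND7, MYB83 and VND6.

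A few libraries held most of the extremes. MZ day 7 replicate 1 was the highest library for 7 of the 10 genes and MZ day 5 replicate 2 for the other 3, which were CESA8, VND6 and MYB83. MZ day 7 replicate 2 was among the 4 lowest libraries for all 10 genes, ties at 0 included, EZ day 5 replicate 1 for 9, and EZ day 6 replicate 2 and MZ day 6 replicate 2 for 8 each. The mean over the 10 genes, in log2(FPKM + 1), was 0.73 in EZ day 5 replicate 1, 1.53 in EZ day 6 replicate 2, 1.499 in MZ day 6 replicate 2 and 1.06 in MZ day 7 replicate 2. It reached 4.44 in EZ day 7 replicate 1 and 5.59 in MZ day 7 replicate 1.

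Markers of other tissues differed between some of these libraries and the other replicate of their group. The mean of the 4 root cap markers, in log2(FPKM + 1), was 5.85 in EZ day 5 replicate 1, 7.79 in EZ day 6 replicate 2, 8.06 in MZ day 6 replicate 2 and 7.73 in MZ day 7 replicate 2. Over all libraries the root cap mean ran from 5.37 to 7.79 in those labelled EZ and from 6.18 to 8.06 in those labelled MZ. The summed FPKM of the list ran from 198 to 1033 in the libraries labelled EZ and from 476 to 1666 in those labelled MZ, and none of the 4 was listed at 0 in any library. The mean of the 5 endodermis markers was 5.96 in EZ day 5 replicate 1, inside the range of the other libraries, and the median of all tested genes there was 3.11. The endodermis mean was 5.23 in MZ day 6 replicate 2 and 5.11 in MZ day 7 replicate 2, against 6.28 and 6.65 in replicate 1 of these groups. The mean of the 4 phloem markers was 1.25 in EZ day 5 replicate 1 and 2.27 in replicate 2. It was 1.66 in EZ day 6 replicate 2 and 2.34 in replicate 1. In MZ day 6 it was 0.917 in replicate 2 and 2.30 in replicate 1, and in MZ day 7 1.31 and 1.19. The phloem mean ran from 0.569 to 2.647 over the libraries labelled EZ and from 0.917 to 2.855 over those labelled MZ. The part of root cap, endodermis or phloem RNA in the levels of the xylem genes was not tested.

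**Figure D2:**
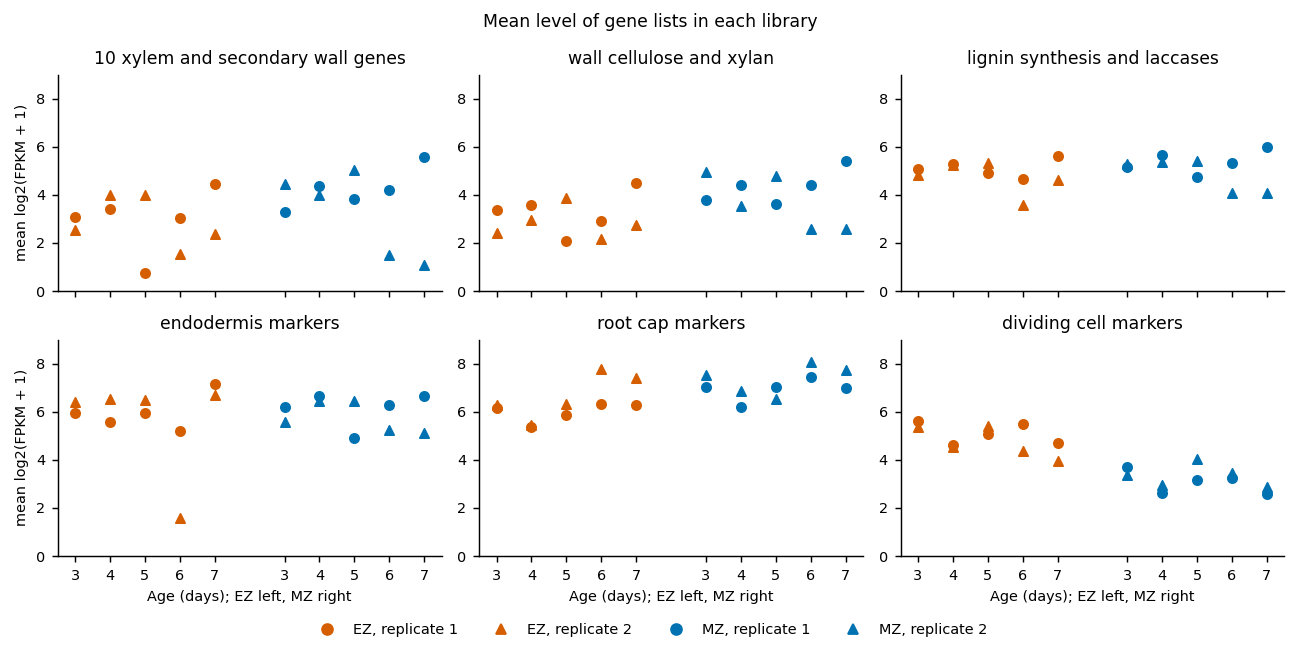
Mean log2(FPKM + 1) of 6 gene lists in each library against age in days, EZ libraries in orange on the left and MZ libraries in blue on the right, circles for replicate 1 and triangles for replicate 2. EZ day 5 replicate 1 is low for the 10 xylem genes, at 0.73, and near the other libraries for endodermis markers, at 5.96.

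Across the 20 libraries the levels of the 10 genes varied together, VND6 excepted. Correlations were taken on log2(FPKM + 1) and are given as descriptions, since all genes of a library share its cells and its depth. Over the 36 pairs without VND6, Pearson's r ran from 0.53 to 0.96 with a median of 0.89, and Spearman's rho from 0.61 to 0.95 with a median of 0.86 (n = 20 libraries). Leaving out the 2 libraries farthest from the median of the first gene gave a median r of 0.85. The median was 0.87 within the 10 libraries labelled EZ and 0.94 within the 10 labelled MZ. The 9 pairs with VND6 had a median r of 0.43. XCP1 and XCP2 were the closest pair, at r = 0.96 and rho = 0.95, with 0.99 within EZ and 0.98 within MZ. CESA4 and CESA8 followed at r = 0.95, and VND7 with MYB46 stood at 0.87.

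Other genes followed the same pattern. Among 12449 candidate genes (mean FPKM 5 or more, few words shared with other genes), r with the mean of the 10 genes had a median of 0.04, and 11 genes reached 0.9 (n = 20 libraries). The closest was GUX1 (AT3G18660), which adds glucuronic acid to xylan, the main hemicellulose of the secondary wall, at r = 0.97, with 0.93 within EZ and 0.99 within MZ. It was followed by a nucleotide-sugar transporter gene (AT2G28315) at 0.96, a DUF547 protein gene (AT5G60720) at 0.95, an NmrA-like protein gene (AT1G75280) at 0.93 and the laccase LAC4 (AT2G38080) at 0.93. A thaumatin family gene (AT5G40020) stood at 0.93, and RIC4 (AT5G16490), an effector of ROP GTPases, and DMP2 (AT3G21550), a DUF679 membrane protein gene, at 0.92 each. Within the libraries of either label r was at least 0.84 for each of these 8 genes. LAC4 spanned 0.0351 to 34.2 FPKM in the libraries labelled EZ and 0.837 to 207 FPKM in those labelled MZ.

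The comparison of zone labels asked whether the program is higher in one zone over the 5 ages. In this contrast 9 of the 10 genes (all 10 after quantile or median-of-ratios scaling, where VND6 turned negative) had lower fitted means under the EZ label, and the median log2 difference, EZ minus MZ, was -1.01, against 0.15 for all tested genes. These 10 differences are not separate observations, since the genes varied together across libraries. By limma, 0 of the 10 passed an adjusted p of 0.05, where 28.4% of all 22335 tested genes did (20.6% higher and 7.77% lower), and 1 had an unadjusted p under 0.05, as 8913 of the 22335 did. That gene was CESA8, at -1.71 ± 0.70 (SE, n = 20) with an adjusted p of 0.0798. CESA4 stood at -1.03 ± 0.63, CESA7 at -1.09 ± 0.64, MYB46 at -1.09 ± 0.66, XCP2 at -1.08 ± 0.72 and LAC17 at -0.996 ± 0.93, with adjusted p from 0.220 to 0.450. MYB83 stood at -0.62 ± 0.41, XCP1 at -0.39 ± 0.83, VND7 at -0.13 ± 0.47 and VND6 at 0.004 ± 0.26. No gene of the 10 had labels that did not overlap, as 1.07% of tested genes did.

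Single libraries moved these differences. CESA8 passed without MZ day 7 replicate 2, at -2.24 and an adjusted p of 0.0132 by limma, where CESA4 passed too, at -1.54 and 0.0407. CESA8 also passed without EZ day 5 replicate 2, at -2.04 and 0.0487, and with the 4 libraries of day 7 left out, at -2.05 and 0.0213. With a pseudocount of 5 or after quantile normalisation its adjusted p by limma was 0.0423 and 0.0357. Without MZ day 7 replicate 1 the differences were nearer to 0: CESA8 stood at -1.18 with an adjusted p of 0.149 by limma, CESA4 at -0.53, CESA7 at -0.66, MYB46 at -0.63, XCP2 at -0.57 and LAC17 at -0.25. XCP1 turned to 0.25 and VND7 to 0.24 without that library, and XCP1 turned to 0.17 without EZ day 5 replicate 1.

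Age gave no calls. Within the libraries labelled EZ the slopes of the 10 genes ran from -0.30 to 0.19 per day in log2(FPKM + 1), with 5 of 10 below 0, and 0 passed by limma, where 0.0134% of all tested genes did (0.00895% higher and 0.00448% lower). Within those labelled MZ all 10 slopes were below 0, from -0.53 to -0.02 per day, and 0 passed, where 0.918% of all tested genes did (0.0672% higher and 0.851% lower). The slope of the zone difference was above 0 for all 10, from 0.04 to 0.42 per day, and 0 passed, where 0.00895% of all tested genes did (0.00448% in each direction). In each of these 3 fits 0 of the 10 had an unadjusted p under 0.05, and adjusted p was at least 0.570. The 10 slopes are not separate observations, since the genes moved together and MZ day 7 replicate 2 was low for all of them.

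**Figure D3:**
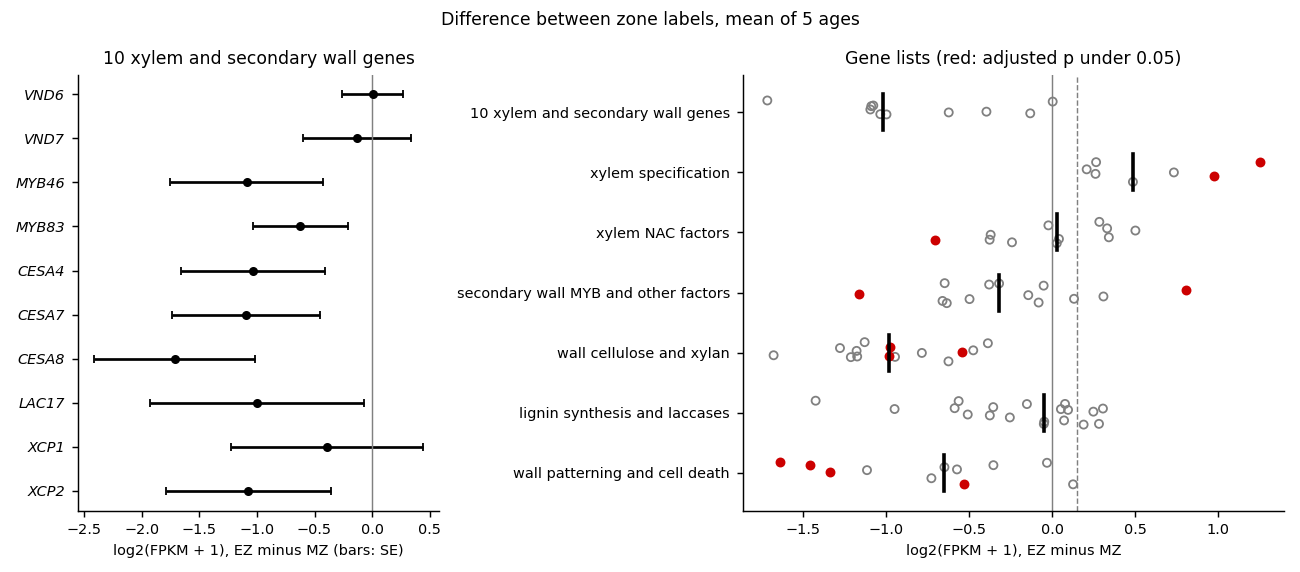
Left, the difference between zone labels for each of the 10 genes in log2(FPKM + 1), EZ minus MZ over the 5 ages, with SE; right, the same difference for each tested gene of 7 lists, with the list median as a black bar, called genes in red and the median of all tested genes, 0.15, as a dashed line. The 10 xylem genes center on -1.01 with no call, and the 3 called genes of the wall cellulose and xylan list lie below 0.

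Other genes of the pathway were taken from 6 lists of 80 genes, of which 75 were tested. In the wall cellulose and xylan list 3 of 14 genes fell and 0 rose in EZ-labelled libraries, with a list median of -0.98. Of all tested genes 7.77% were called lower and 20.6% higher, and their median was 0.15. IRX10 (AT1G27440), a xylan synthase, averaged 12.6 ± 3.32 FPKM (SD, n = 10) under the EZ label and 27.2 ± 13.1 FPKM (SD, n = 10) under the MZ label, a log2 difference of -0.97 ± 0.24 (SE, n = 20). PARVUS (AT1G19300), which acts in making the end sequence of xylan, stood at -0.98 ± 0.28, and IRX14 (AT4G36890), a xylan synthesis protein, at -0.54 ± 0.15. The adjusted p by limma was 0.00736, 0.0161 and 0.0133 for these 3, and each was called in all 20 leave-one-out fits. Their r with the mean of the 10 xylem genes was 0.60, 0.43 and 0.55 over 20 libraries. GUX1, which had the highest r of this list, 0.97, was not called, at -1.18 ± 0.64 with an adjusted p of 0.183 by limma.

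In the wall patterning and cell death list 4 of 11 genes were lower and 0 higher, with a median of -0.65. The shares over all tested genes were 7.77% lower and 20.6% higher, with a median of 0.15. The nuclease BFN1 (AT1G11190) averaged 46.3 ± 21.8 FPKM (SD, n = 10) under the EZ label and 135 ± 38.4 FPKM (SD, n = 10) under the MZ label, at -1.64 ± 0.28 (SE, n = 20). The metacaspase MC9 (AT5G04200) stood at -1.34 ± 0.31 and the ribonuclease RNS3 (AT1G26820) at -1.46 ± 0.35. These 3 are known from dying cells of the root cap as well as the xylem. Their r with the mean of the 10 genes was 0.36, 0.12 and 0.01 over 20 libraries, and 3 of the 4 root cap markers were lower too. The part of root cap RNA in their difference was not tested. The fourth called gene, outside the rule for names and given for completeness, was ROPGAP3 (AT2G46710), a regulator of ROP GTPases, at -0.53 ± 0.17, which was no longer called in 11 of 20 leave-one-out fits, with adjusted p by limma up to 0.0708. Those were the fits without EZ day 3 replicate 2, day 4 replicate 1, day 5 replicate 1, day 6 replicate 2 or day 7 replicate 1, and without MZ day 3 replicate 2, day 4 replicate 1, day 4 replicate 2, day 5 replicate 2, day 6 replicate 1 or day 7 replicate 2.

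In the xylem specification list 2 of 7 genes rose in EZ-labelled libraries and 0 fell, with a median of 0.49, or 4 of 7 at an unadjusted p under 0.05. Of all 22335 tested genes 20.6% were called higher and 8913 had an unadjusted p under 0.05. PHB (AT2G34710), an HD-ZIP III factor that patterns the vascular cylinder, averaged 7.01 ± 3.97 FPKM (SD, n = 10) under the EZ label and 2.83 ± 1.36 FPKM (SD, n = 10) under the MZ label, at 0.97 ± 0.31 (SE, n = 20). ACL5 (AT5G19530), a thermospermine synthase that holds back xylem maturation, stood at 1.25 ± 0.41. PHB was no longer called in 10 of 20 leave-one-out fits, with adjusted p by limma up to 0.0753. Those were the fits without EZ day 3 replicate 1, day 4 replicate 2, day 5 replicate 2, day 6 replicate 1 or day 7 replicate 1, and without MZ day 3 replicate 1, day 4 replicate 2, day 5 replicate 1, day 6 replicate 2 or day 7 replicate 2. ACL5 was not called in 11, with adjusted p up to 0.0813: in 9 of the same fits and without MZ day 4 replicate 1 or MZ day 7 replicate 1. After quantile normalisation PHB stood at 0.61 and ACL5 at 0.88, with adjusted p by limma of 0.134 and 0.120. Neither was called without the filter on low values (0.0595 for PHB and 0.0734 for ACL5), nor was ACL5 with day 7 left out (0.0596).

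Among the other regulators few were called. Of 11 tested NAC factors only SND3 (AT1G28470) was called, lower at -0.71 ± 0.24 (SE, n = 20), and it was called in only 4 of 20 leave-one-out fits, those without the EZ libraries of day 3 (replicate 2), day 4 (replicate 1), day 6 (replicate 2) and day 7 (replicate 2). Over the 11 the r with the mean of the 10 genes ran from -0.51 for NST2 to 0.91 for VND5, with 0.37 for VND1, 0.70 for VND2, 0.58 for VND3 and 0.90 for VND4, relatives of VND7 named after their values were seen. Of 13 tested MYB and other factors LBD30 (AT4G00220), a regulator of tracheary element differentiation, was lower at -1.16 ± 0.31 and MYB69 (AT4G33450) higher at 0.81 ± 0.23, MYB69 at no more than 3.77 FPKM in any library. After quantile normalisation MYB69 stood at 0.53 with an adjusted p of 0.126 by limma, so none of the 3 pathway genes called higher (PHB, ACL5 and MYB69) was called under that scaling. By limma 0 of 19 lignin and laccase genes were called, 1 had an unadjusted p under 0.05, and their median was -0.05. The most abundant of them, CCoAOMT1 (AT4G34050), a methyltransferase of lignin precursors, averaged 985 ± 314 FPKM (SD, n = 10) under the EZ label and 1065 ± 459 FPKM (SD, n = 10) under the MZ label. In all, 12 of these 75 genes were called in either direction (16.0%), against 28.4% of all tested genes. Higher calls were 3 of the 75, where 20.6% of all tested genes were called higher. The rest of the 12 were called lower, as 7.77% of all tested genes were.

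The balance between genes of one role was compared within each library, where depth and scaling cancel apart from the pseudocount. This was done after the values had been seen, for 6 pairs of genes with one role, and XCP2 over XCP1 had the smallest p. How often the ratio of other gene pairs differs between the labels was not tested. XCP2 was the higher of the proteases in 2 of 10 libraries labelled EZ and in 10 of 10 labelled MZ. The log2 ratio averaged -0.12 ± 0.33 (SD, n = 10) under the EZ label and 0.56 ± 0.47 (SD, n = 10) under the MZ label. An exact permutation test that exchanged labels within ages gave a difference of -0.68 with a two-sided p of 0.00257, or 0.0154 adjusted over the 6 ratios. The EZ library farthest on the MZ side was EZ day 5 replicate 1, at 0.69, where XCP1 and XCP2 rest on about 29 and 59 fragments. The highest MZ library was MZ day 7 replicate 2, at 1.72, where XCP1 and XCP2 rest on about 58 and 250 fragments. The smallest p this test allows is 0.000257.

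CESA8 over CESA4 moved likewise. The log2 ratio averaged -0.95 ± 0.50 (SD, n = 10) under the EZ label and -0.27 ± 0.54 (SD, n = 10) under the MZ label, a difference of -0.68 with an exact permutation p of 0.00566, or 0.0170 adjusted. In the libraries labelled MZ the ratio lay between -0.44 and 0.49 at days 3 to 6, and at day 7 it was -1.01 and -1.31. CESA8 over CESA7 differed by -0.62 (exact permutation p 0.0147, adjusted 0.0293). It shares CESA8 with the ratio to CESA4, so these ratios are not separate observations. Other pseudocounts and leaving out libraries were not tried for CESA8 over CESA7. The ratios of CESA7 over CESA4, MYB83 over MYB46 and VND7 over VND6 differed by -0.06, 0.47 and -0.14, with exact permutation p of 0.835, 0.396 and 0.757. Leaving out any 1 library kept p at or under 0.0136 for XCP2 over XCP1 and at or under 0.0206 for CESA8 over CESA4. With a pseudocount of 0.1 the CESA8 over CESA4 difference was -1.08 and its exact permutation p 0.0880. CESA8 was listed at 0 in EZ day 5 replicate 1. It rested on about 3.1 fragments in EZ day 6 replicate 2 and 2.1 in MZ day 7 replicate 2. RNA integrity per library was not analysed here, and its part in these ratios was not tested.

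**Figure D4:**
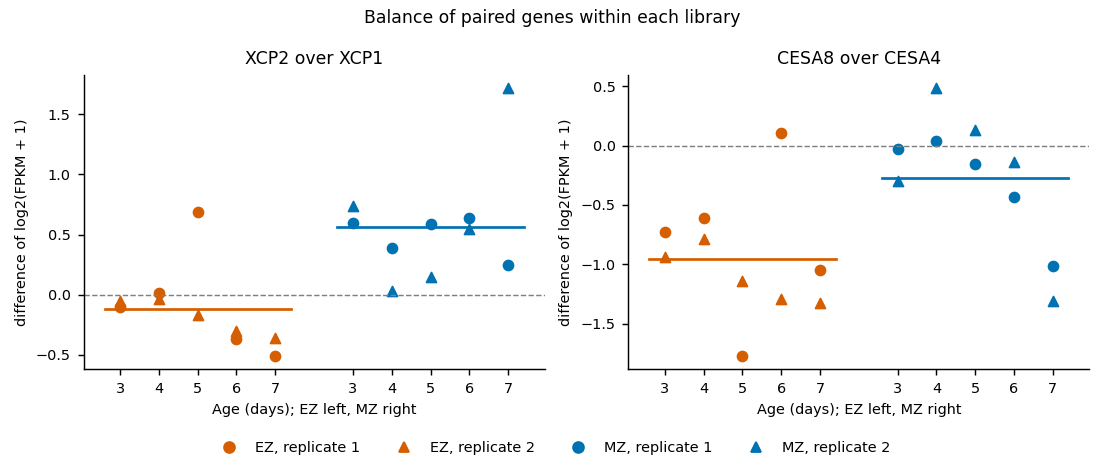
Difference of log2(FPKM + 1) between XCP2 and XCP1 (left) and between CESA8 and CESA4 (right) in each library against age in days, EZ libraries in orange and MZ libraries in blue, circles for replicate 1, triangles for replicate 2, and horizontal lines for the mean of each label. All 10 MZ libraries lie above 0 for XCP2 over XCP1, and 2 of the 10 EZ libraries do.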

How the data were processed

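Root cells sorted as GFP-negative were sequenced after low-input cDNA amplification, per the labels' protocols. The authors deposited FPKM per gene and library, and the submitters' processing notes name TopHat2 2.0.13, Cufflinks 2.1.1 and TAIR10, without roles or settings. No read counts were used. Amplified fragments without molecular identifiers are not independent molecules.

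The fit took 22335 genes (1 FPKM or more in 2 or more libraries) on log2(FPKM + 1), which shrinks differences of weak genes, with limma 3.58.1 in R 4.3.3: a mean per group, a variance trend, 1 shared spread, and Benjamini-Hochberg adjustment over all genes tested (two-sided, threshold 0.05). All 10 genes passed the filter. The zone difference of the fit was tested on simulated data. The changed genes there were drawn at random from all tested genes. Most of the 10 genes vary more than nearly all tested genes, so that test does not give the power for them. Depth was the step between low FPKM values of single-transcript genes of at least 2000 bases, where 72.8% to 91.1% of values lay within 0.1 of a whole multiple. Symbols, descriptions and promoters came from RefSeq's TAIR10.1 by locus tag. At most 20.1% of the 32-base words of any of the 10 genes (LAC17) occurred in other transcripts.

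The 10 genes and the lists were chosen with earlier results of these data known. The rule for names was all 10 genes, up to 3 called genes per list by smallest adjusted p (with none called, the gene of highest mean), the 8 genes most like the mean of the 10, and the control genes PCNA1, RPS6A and RCPG. Ratios within a role were chosen after the values were seen. Replicate numbers were not used as pairs in the main fit or in the permutation test. Correlations of replicate gaps between groups ran from -0.21 to 0.35, with 12 of 45 over 0.1. These take all pairs of groups together, so they cannot settle whether libraries were paired within an age. Alternatives were other pseudocounts, filters and scalings, library weights, a replicate block, day 7 left out and each library left out.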

Additional observations from a re-analysis of the deposited data

How the results depend on the processing

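None of the 10 genes was called for the zone difference as reported, and 1 was called (CESA8) with a pseudocount of 5, after quantile normalisation, with day 7 left out, and with the 2 least similar libraries left out, the last chosen after seeing the data. Leaving out 1 library gave 0 to 2 calls. With the replicate block 0 were called, and the replicate block gave 13 pathway genes against 12. That block was a single shift of replicate 2 shared by all groups. It does not model a pairing of EZ and MZ libraries within an age, which was not tested. No age contrast had a call among the 10 under any alternative. The slopes changed sign in 88 of 894 refits. The pathway count was 9 to 18 without 1 library. The zone difference of VND6, 0.004, turned to -0.0183 with a pseudocount of 5, -0.18 after quantile normalisation, -0.0095 after median-of-ratios scaling, -0.0894 without day 7 and -0.0697 without the 2 least similar libraries. That of VND7 turned to 0.23 with a pseudocount of 0.1. Without 1 library VND6 ran from -0.17 to 0.18, VND7 from -0.50 to 0.24 and XCP1 from -1.04 to 0.25. The CESA8 to CESA4 difference was -1.08, no longer past the threshold, with a pseudocount of 0.1. The cause was not tested. The median zone difference of all tested genes was 0.15 as deposited, -0.06 with quantile values and 0.10 with median-of-ratios size factors, and that of the 10 genes -1.01, -1.17 and -1.07. VND6 and MYB83 had the lowest mean FPKM of the 10 genes, 0.658 and 2.04 over the 20 libraries. Whether depth limits their values was not tested.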
